A study of Mus musculus with 12 samples.

Results

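The 86 genes described here encode the proteins of the cytosolic ribosome, the particle that makes protein from mRNA in every cell, and a few close relatives of those genes. They were the genes whose symbol has the form used for large-subunit (Rpl, with the stalk genes Rplp) or small-subunit (Rps, with Rpsa) proteins, without the Rps6k kinases and the named pseudogenes, and with at least 1 TPM in at least 2 of 12 libraries. They were 86 of the 24589 genes in the table, 52 of the large subunit and 34 of the small. TPM divides a gene's reads by transcript length and gives it as a part of a fixed total for each library. Of 89 matching symbols, Rpl10l, Rpl39l and Rps27 fell below that minimum. The name pattern also took in Rps19bp1, which encodes a protein that binds Rps19, and Rpl7l1, a relative of Rpl7.

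The cells were NRAS/AE9a leukemic cells of the mouse, labelled AML cells, a model of acute myeloid leukemia named for NRAS and the AML1-ETO9a fusion. The groups were Tet2 KO cells and WT cells after 0, 4 and 8 h of actinomycin D, with 2 libraries in each of the 6 groups. Actinomycin D blocks transcription and was given at 5 µg/ml. Both genotypes grew in RPMI 1640 with SCF, IL-3, IL-6, G418 and puromycin. No second line of either genotype is named, so the genotype and any other difference between these lines cannot be told apart. Whether a group's 2 libraries are separate cultures is not stated, so the p-values rest on library-to-library spread that may be only technical.

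Tet2, the targeted gene, still had 10.19 and 10.16 TPM in KO libraries at 0 h, against 13.05 and 16.03 TPM in WT libraries. Its log2 difference was -0.47 ± 0.127 (SE, adjusted p = 0.0167, limma, n = 2 each), and TPM per gene does not show whether a deleted exon is missing. All 10 myeloid markers were present, with a summed level of 1630 to 3090 TPM in KO libraries and 1090 to 3520 TPM in WT libraries. T cell markers summed to at most 0.32 TPM and B cell markers to at most 1.02 TPM in any library. The TPM values keep no sequencing depth, so the depth is unknown and no counting interval could be given.

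Ribosomal proteins are made in near equal numbers, since each ribosome carries 1 copy of nearly every one, with the stalk proteins P1 and P2 as the best known exception. Their mRNAs are among the most abundant and long-lived of a growing cell. Most begin with a C followed by a run of pyrimidines, the 5′ terminal oligopyrimidine (TOP) motif, through which the mTOR pathway and the protein Larp1 control their translation and stability. In leukemia and in inherited anemias, single ribosomal protein genes such as RPS14, RPS19, RPL5 and RPL11 are known for loss of 1 copy in human patients.

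Promoters of some members that gained TPM after actinomycin D in both genotypes are shown beside those of some that lost it in both. The TOP motif lies at the first transcribed base. Each line runs from 50 bases before to 25 bases after the start annotated by RefSeq on GRCm38.p6, 5′ to 3′ on the gene's own strand. Capitals mark a run of 5 or more C or T letters that touches the 5 bases on either side of that start. The first 3 promoters belong to genes that were higher at 4 h than at 0 h in both genotypes. They are at chr7:4792915-4792989 on the plus strand, chr7:141447601-141447675 on the plus strand and chr17:27635220-27635294 on the minus strand.
Rpl28: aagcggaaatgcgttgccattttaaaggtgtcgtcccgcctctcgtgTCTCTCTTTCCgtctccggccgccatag
Rplp2: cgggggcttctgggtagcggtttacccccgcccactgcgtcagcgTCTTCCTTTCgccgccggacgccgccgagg
Rps10: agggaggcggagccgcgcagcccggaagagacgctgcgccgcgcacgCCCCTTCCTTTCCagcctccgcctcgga
Rps6, at chr4:86857343-86857417 on the minus strand, and Rpl38, at chr11:114668530-114668604 on the plus strand, stand for long and short members that later parted between the genotypes.
Rps6: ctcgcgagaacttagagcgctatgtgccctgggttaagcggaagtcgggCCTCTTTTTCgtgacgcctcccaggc
Rpl38: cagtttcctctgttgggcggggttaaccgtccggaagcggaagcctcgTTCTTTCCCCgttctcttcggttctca
The last 3 promoters belong to the genes with the lowest changes over 8 h in both genotypes. That ranking covers members averaging at least 5 TPM that passed an adjusted p under 0.05 (limma) with no overlap between groups. These promoters are at chr17:46782632-46782706, chr15:80264282-80264356 and chr12:69184043-69184117, all on the minus strand.
Rpl7l1: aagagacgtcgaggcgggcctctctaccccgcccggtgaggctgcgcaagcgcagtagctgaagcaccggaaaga
Rps19bp1: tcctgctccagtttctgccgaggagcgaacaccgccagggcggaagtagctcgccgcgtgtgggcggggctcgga
Rpl36al: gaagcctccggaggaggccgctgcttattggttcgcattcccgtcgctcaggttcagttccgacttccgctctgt
The first 5 held runs of 10 to 13 pyrimidines at the start, and the last 3 held no run of that kind. The first 5 were picked as examples, and only 35 of the 65 members with a promoter held such a run. Rpl5, which also lost TPM in both genotypes, is not shown. These lines thus do not compare gaining with losing members as sets.

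RefSeq gave a promoter for 65 of the 86 members. A run of 5 or more pyrimidines at the start was present in 35 of them, 53.8%, against 36.3% of the 8686 tested genes with a promoter. The letters CTCTTTC, searched on the gene's strand over 300 bases, were present in 13 of the 65, 20.0%, against 4.72% of tested genes. On both strands they were present in 27.7% of members and 8.69% of tested genes. CTTTCC, which can overlap CTCTTTC by 5 letters, was present on the gene's strand in 38.5% and 17.2%, and on both strands in 50.8% and 30.3%. CCGGAA, the core bound by factors of the ETS family, was present on both strands in 52.3% of members and 33.5% of tested genes. A match is a description of these letters only, and annotated starts can lie some bases from the start in use.

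Near-identical copies limit what can be read for a few members. Rps27 was listed at 0 in all 12 libraries, while Rps27rt, a retrotransposed copy, had 3632 to 10990 TPM. Their coding sequences, 255 bases with the stop codon, do not differ at any base, and 341 bases in a row are shared by the 345 base Rps27 transcript. The value of Rps27rt may thus hold reads of either gene, and RSEM may also have split reads between other members and their pseudogenes. The first 120 coding bases show the identity and how Rps27l, a relative that p53 induces, departs from it. The first line holds both Rps27, on chromosome 3, and Rps27rt, on chromosome 9. Capitals in the second mark its 28 differences.
Rps27 and Rps27rt: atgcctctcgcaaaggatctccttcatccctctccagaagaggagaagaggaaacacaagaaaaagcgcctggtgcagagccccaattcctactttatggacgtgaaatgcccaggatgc
Rps27l: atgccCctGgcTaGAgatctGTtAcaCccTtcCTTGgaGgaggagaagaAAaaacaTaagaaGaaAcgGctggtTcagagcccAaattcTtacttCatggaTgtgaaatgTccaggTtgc
Rpl34 had 168.0 to 410.9 TPM while the row of its pseudogene Rpl34-ps1, which differs at 2 of 354 coding bases, had 2598 to 4554 TPM. Adding the TPM of such pseudogene rows to their members moved none of the 20 counts of higher or lower members by more than 1. Rpl34 is not described further here.

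Ribosomal protein mRNA held a larger share of the transcripts in KO cells than in WT cells at each time, and a larger share after actinomycin D than before it. The 86 genes together had 20.95% and 21.28% of TPM in the KO libraries before actinomycin D, 26.81% and 27.01% after 4 h, and 28.5% and 28.71% after 8 h. In the WT libraries they had 16.43% and 15.21% before it, 20.41% and 20.68% after 4 h, and 22.45% and 21.35% after 8 h. No KO library overlapped a WT library of the same time, and no 4 h library overlapped a 0 h library of its genotype. The ratio of the mean shares, KO over WT, was 1.33 at 0 h, 1.31 at 4 h and 1.31 at 8 h. The ratio of 8 h over 0 h was 1.35 in KO cells and 1.38 in WT cells. The 78 mitochondrial ribosomal protein genes, which serve the separate ribosome of the mitochondrion, went the other way over time. Their share was 0.676% ± 0.00526, 0.571% ± 0.00209 and 0.407% ± 0.00912 at 0, 4 and 8 h in KO cells (SD, n = 2). It was 0.542% ± 0.000474, 0.448% ± 0.0035 and 0.342% ± 0.00395 in WT cells (SD, n = 2). Between genotypes the mitochondrial set went the same way as the 86 genes, with ratios of KO over WT of 1.248, 1.275 and 1.191 at 0, 4 and 8 h. All of these are shares, with no added RNA standard, so a transcript can gain TPM by outlasting others, with no new copy made.

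**Figure D1:**
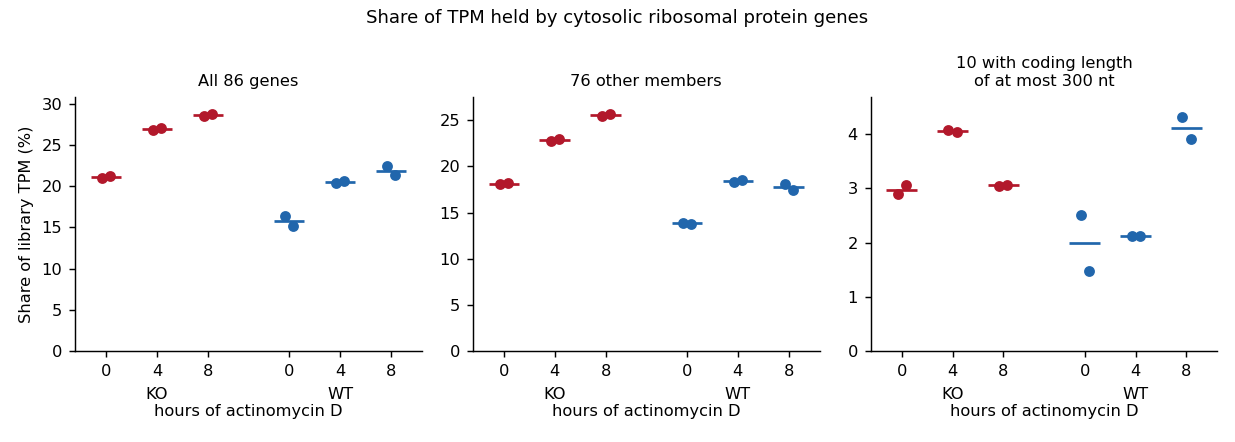
Share of library TPM in percent held by all 86 genes (left), by the 76 members other than the 10 with the shortest coding sequence (middle) and by those 10 (right), for KO and WT at 0, 4 and 8 h. Each point is a library and each bar the mean of 2. Both KO libraries lie above both WT libraries at every time in the first 2 panels, and the 10 short members go the other way at 8 h, with 3.04% and 3.07% in KO and 4.32% and 3.91% in WT.

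Most members were abundant, and their levels spread widely although their proteins are needed in like numbers. Over the 12 libraries 67 of the 86 averaged over 1000 TPM, 79 over 100 TPM and 82 over 10 TPM. The median member had 2227 and 2386 TPM in KO libraries before actinomycin D, against 1809 and 1754 TPM in WT libraries. Rps12 and the stalk gene Rplp1 were the most abundant, with means of 8903 and 8420 TPM over the 12 libraries. At the low end, Rps4l, Rpl3l and Rpl32l stayed at or below 2.65 TPM, and Rpl37rt between 4.5 and 12.57 TPM. Rpl3l is the form of Rpl3 known from striated muscle. Rpl37rt, Rpl32l and Rps4l are annotated as pseudogenes in GENCODE M21. Some familiar members were low as well, such as Rps15a with a representative transcript of 5130 nt in GENCODE M21 and Rps20 with one of 3706 nt. Their coding sequences are 390 and 357 nt, and TPM divides by transcript length, so the level depends on which transcripts the authors' annotation lists.

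Before actinomycin D nearly the whole family was higher in KO cells. Of the 86 members, 77 were higher in KO and 1 was lower at an adjusted p under 0.05 (limma on log2(TPM + 1), Benjamini-Hochberg over 11152 genes). Over all genes tested, 14.3% were higher and 11.5% lower. The median member differed by 0.38 on the log2 scale and the median tested gene by 0.06. The large subunit had 46 of 52 members higher, and the small subunit had 31 of 34. Of the 8 members that did not pass, 7 averaged under 1000 TPM, and the other was Rps28. Scaling each library so that its typical gene was equal (median-ratio scaling) left 67 higher and 1 lower, and scaling to 12 housekeeping genes 68 and 1. Centring each library on the members' own median, which takes the shared rise away, left 3 higher and 1 lower.

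Single members at 0 h ranged around that shared rise, with Rpl38 the highest at 0.82 ± 0.184 (SE, adjusted p = 0.00598, limma). Rpl38 had 2203 and 2646 TPM in KO, against 1795 and 1044 TPM in WT, so its size rests in part on the lower WT library. Rpl28, whose pyrimidine run is shown above, had 4318 and 4447 TPM in KO, against 3080 and 3219 TPM in WT. Its log2 difference was 0.48 ± 0.055 (SE, adjusted p = 5.37e-05, limma, n = 2 each), and the groups did not overlap. Rpl36 had 4053 and 4528 TPM in KO, against 2767 and 2381 TPM in WT, a log2 difference of 0.74 ± 0.103 (SE, adjusted p = 0.000246, limma). Of the members that passed without overlap, Rpl7a, Rpsa and Rpl19 had the smallest differences, at 0.23, 0.22 and 0.20, which centring turns to -0.14, -0.16 and -0.17. Rpl19, for instance, had 2398 and 2323 TPM in KO, against 1948 and 2155 TPM in WT. The single lower member was Rps4l, with 0.15 and 0.64 TPM in KO and 1.2 and 2.65 TPM in WT, and no member was called lower without the first KO library or without the second WT library at 0 h, where the count was 0.

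Markers of other cell types moved with genotype beside these. Of 7 erythroid markers, 2 were tested and 4 were at 0 in each genotype at 0 h. Their summed level was 293 to 296 TPM in KO and 45.5 to 58.3 TPM in WT at 0 h. It was 369 to 398 TPM in KO and 75.6 to 82.8 TPM in WT at 4 h, and 815 to 843 TPM in KO and 121 to 129 TPM in WT at 8 h. Nearly all of it was the globin Hbb-bt, while Klf1 and Alas2 reached at most 0.31 TPM. Stroma and endothelium markers, nearly all of it Pecam1, summed to 143 to 163 TPM in KO and 57.9 to 158 TPM in WT over all times. Their part in the ribosomal protein differences was not tested. In bulk libraries, more cells of a type and more RNA per cell cannot be told apart.

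The excess in KO cells was seen again at 4 h and 8 h. At 4 h, 70 members were higher in KO and 1 was lower, against 24.9% and 13.7% of all genes, with a median member difference of 0.34 and a median gene at 0.10. At 8 h, 68 were higher and 6 were lower, against 37.3% and 12.1% of all genes, with a median of 0.54 and a median gene at 0.20. The 6 lower members were Rpl37a, Rpl38, Rps21, Rps27rt, Rps29 and the low-level Rpl3l. That count of lower members rests on single libraries and settings, being 1 with no filter on low values and 3 without the variance trend. It was 0 without the first KO library at 8 h, 2 without the second, 0 without the first WT library at 8 h and 3 without the second. The same 55 members were higher in KO at all 3 times, and no share of all genes was computed for that joint count. Median-ratio scaling left 40 higher and 1 lower at 4 h, and 45 and 9 at 8 h. Centring on the members' median left 7 higher and 18 lower at 4 h, and 32 and 15 at 8 h. Rpl30 had the highest difference at 8 h, 1.55 ± 0.480 (SE, adjusted p = 0.0177, limma), with 42.5 and 73.98 TPM in KO and 31.18 and 10.85 TPM in WT. Without the lower WT library the Rpl30 difference was 0.83 and no longer passed (adjusted p = 0.186, limma).

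**Figure D2:**
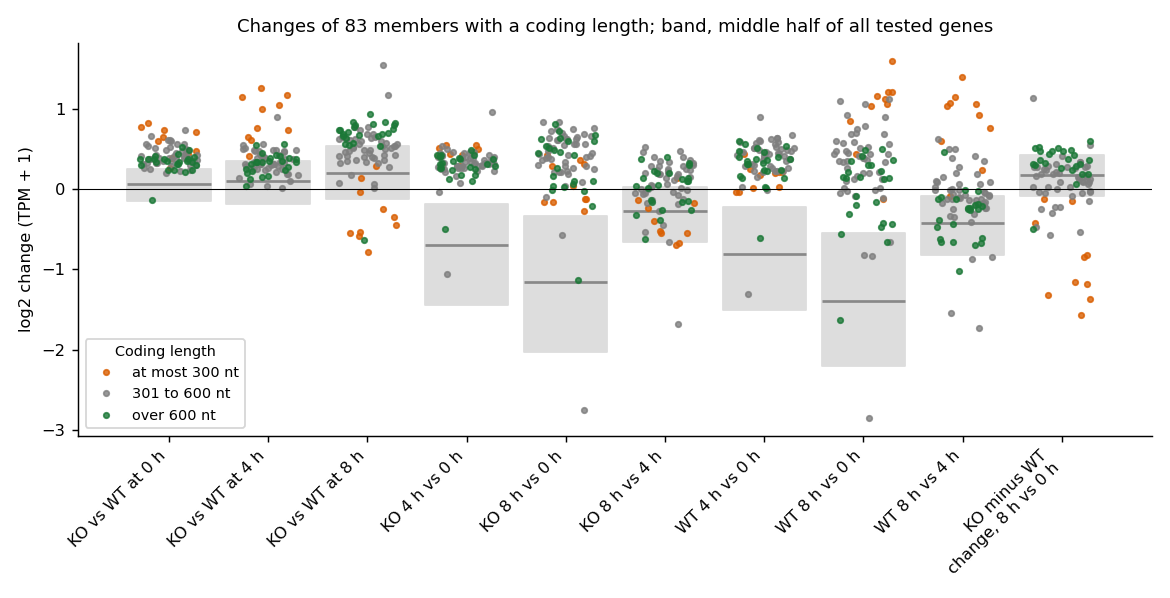
log2 change on the TPM + 1 scale for the 83 members with an annotated coding sequence in each of the 10 comparisons, coloured by coding length, with the median and the interquartile range of all 11152 tested genes as a grey line and band. Members lie above the band at most comparisons with 0 h, and the 10 short members separate from the others at 8 h.

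While most transcripts lost TPM after actinomycin D, ribosomal protein transcripts gained it in both genotypes. In KO cells, 69 members were higher at 4 h than at 0 h and 2 were lower, against 4.88% and 68.0% of all genes. At 8 h against 0 h in KO cells, 61 were higher and 5 lower, against 9.54% and 75.4%. In WT cells, 65 members were higher at 4 h than at 0 h and 2 were lower, against 6.77% and 71.0% of all genes. At 8 h against 0 h in WT cells, 60 were higher and 13 lower, against 8.48% and 80.2%. At 8 h the median member had changed by 0.41 in KO and 0.34 in WT on the log2 scale, while the median gene had changed by -1.16 in KO and -1.40 in WT. Genes outside the family lost less where their coding sequence was short. Of 232 such genes of at most 300 nt, 40.5% were higher and 37.9% lower at 8 h in WT, and 33.2% and 34.1% in KO. Their medians were -0.005 in WT and 0.04 in KO, against 1.09 and -0.04 for the 10 members of that length. Of 1227 such genes over 300 and up to 600 nt, 19.7% were higher in WT and 20.7% in KO. Of the 49 members of that length, 37 were higher in WT and 43 in KO. The same 50 members were higher at both 4 h and 8 h in both genotypes, a joint count for which no share of all genes was computed.

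These counts depend on what the libraries are scaled to. Median-ratio scaling moved the median gene of KO cells at 8 h to -0.02 and that of WT cells to -0.05. It gave 83 members higher and 1 lower in KO cells at 8 h, and 81 higher and 1 lower in WT cells. Shares of all genes given here belong to the fit on TPM as given and do not apply to counts under other scalings. Housekeeping scaling gave 80 and 2 in each. Centring on the members' median gave 35 higher and 14 lower in KO cells at 8 h, 33 and 23 in WT cells, 1 and 7 in KO cells at 4 h, and 23 and 6 in WT cells at 4 h. Removal of a trend on transcript length gave 71 higher and 6 lower in WT cells at 8 h. The members lower in KO cells at 8 h numbered 9 without either of the WT libraries at 0 h, which enter through the shared spread, and those lower in WT cells at 4 h numbered 6 without the second of them.

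The 3 stalk genes gained TPM over 8 h in both genotypes. Rplp0, Rplp1 and Rplp2 encode the stalk of the large subunit, which draws translation factors to the ribosome. Rplp2 had 4389 and 4572 TPM before actinomycin D, 5826 and 5702 after 4 h, and 7694 and 8349 after 8 h in KO cells. In WT cells it had 3418 and 2975, 4787 and 5396, and 7286 and 6061 TPM at those times. The libraries of the 3 times did not overlap in either genotype, and the 8 h to 0 h change was 0.84 ± 0.094 in KO and 1.06 ± 0.094 in WT (SE, adjusted p = 2.44e-06 and 2.14e-07, limma). Rplp0 rose by 0.81 ± 0.054 in KO cells and by 0.49 ± 0.054 in WT cells over 8 h (SE, adjusted p = 1.76e-08 and 1.72e-06, limma). Rplp1 rose by 0.56 ± 0.114 in KO and 1.09 ± 0.114 in WT (SE, adjusted p = 0.000539 and 1.08e-06, limma), so its KO excess of 0.60 at 0 h was 0.06 at 8 h, which did not pass (adjusted p = 0.671, limma).

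Rps15 encodes a small-subunit protein at the decoding site. It had 3699 and 3863 TPM before actinomycin D, 4584 and 4816 after 4 h, and 6779 and 6716 after 8 h in KO cells. In WT cells it had 2850 and 2937, 4444 and 4562, and 4582 and 4075 TPM. From 4 h to 8 h it rose in KO cells by 0.52 ± 0.062 (SE, adjusted p = 2e-05, limma), and its WT value of -0.06 did not pass, a difference between genotypes that was not tested. Rps16, also of the small subunit, gained 0.63 in WT cells by 4 h.

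Genes known from human anemia and leukemia or from p53 control were examined one by one. Rps14 had 4433 and 4330 TPM before actinomycin D, 5136 and 5316 after 4 h, and 5043 and 5067 after 8 h in KO cells, and 3268 and 2883, 3629 and 3727, and 3580 and 3517 TPM in WT cells. Its KO excess was 0.51 at each time, and its change over 8 h was 0.21 in KO and 0.21 in WT, which centring on the members' median turns to -0.059 and -0.031. Rps19 had 2424 and 2462 TPM in KO, against 2530 and 2332 TPM in WT at 8 h, and the groups overlapped. At 0 h it had 1827 and 1765 TPM in KO, against 1600 and 1033 TPM in WT. That difference of 0.48 ± 0.142 (SE, adjusted p = 0.0259, limma) was 0.17 and did not pass (adjusted p = 0.0973, limma) without the lower WT library, Rps19 being 0.46 with median-ratio scaling (adjusted p = 0.134).

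Rpl5 and Rpl11 form a complex with 5S ribosomal RNA that can bind Mdm2, the inhibitor of p53. Rpl11 had 2491 and 2603 TPM before actinomycin D, 3050 and 3049 after 4 h, and 3310 and 3413 after 8 h in KO cells, and 1849 and 2045, 2746 and 2823, and 2268 and 2094 TPM in WT cells. Rpl5 had 931.1 and 937.3, 1005 and 1001, and 808.8 and 797.6 TPM in KO cells, and 697.7 and 764.9, 743.7 and 730.9, and 449.8 and 476.0 TPM in WT cells. Rpl11 thus gained TPM over 8 h, by 0.40 ± 0.063 in KO and 0.16 ± 0.063 in WT (SE, adjusted p = 5.61e-05 and 0.0256, limma), and the WT value of Rpl11 is -0.076 with centring on the members' median. Rpl5 fell by 0.22 ± 0.059 in KO and by 0.66 ± 0.059 in WT (SE, adjusted p = 0.00385 and 2.28e-07, limma), which median-ratio scaling turns to 1.23 and 1.06.

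Rps6, the substrate of the S6 kinases, rose by 4 h and lost TPM after it. It had 1913 and 1884 TPM before actinomycin D, 2374 and 2390 after 4 h, and 1985 and 1974 after 8 h in KO cells, and 1515 and 1543, 1833 and 1761, and 1103 and 1182 TPM in WT cells. At 8 h the KO libraries were above their 0 h libraries while the WT libraries were below theirs. The KO change over 8 h was 0.06 ± 0.053, which did not pass, and the WT change was -0.42 ± 0.053 (SE, adjusted p = 6.82e-06, limma), or 1.29 with median-ratio scaling. Rpsa, which is also known as a laminin receptor, rose by 0.62 in KO and 0.15 in WT over 8 h, the WT value of Rpsa being -0.085 with centring on the members' median. Rps27a, made as a fusion with ubiquitin, rose by 0.38 in KO and 0.20 in WT, the WT value of Rps27a being -0.039 with that centring.

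The members that lost TPM over 8 h in both genotypes were Rps19bp1, Rpl7l1, Rpl36al and Rpl5. Rps19bp1 had 54.23 and 62.12 TPM before actinomycin D, 26.5 and 28.0 after 4 h, and 6.46 and 9.38 after 8 h in KO cells, and 53.12 and 46.1, 22.64 and 16.58, and 5.62 and 6.44 TPM in WT cells. Its change over 8 h was -2.75 ± 0.169 in KO and -2.85 ± 0.169 in WT (SE, adjusted p = 8.77e-09 and 4.75e-09, limma), below the median gene in each. It stayed lower with each scaling, at -1.37 in KO and -1.25 in WT with median-ratio scaling. Rpl7l1 had 105.5 and 97.23, 72.76 and 69.93, and 45.82 and 45.74 TPM at 0, 4 and 8 h in KO cells, and 80.77 and 91.08, 54.05 and 57.99, and 24.44 and 29.74 TPM in WT cells. It fell by 1.13 ± 0.099 in KO and by 1.63 ± 0.099 in WT over 8 h (SE, adjusted p = 2.31e-07 and 5.6e-09, limma), close to the median gene, so that median-ratio scaling gave 0.30 and 0.05.

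Some members are paralogs of core ribosomal proteins. Rpl36al, the autosomal relative of X-linked Rpl36a, had 1304 and 1299 TPM before actinomycin D, 1264 and 1270 after 4 h, and 902.3 and 847.2 after 8 h in KO cells, and 929.7 and 1122, 1054 and 1030, and 576.1 and 583.1 TPM in WT cells. Rpl36a had 3249 and 3061 TPM at 8 h against 2344 and 2467 TPM at 0 h in KO cells, and 2086 and 1986 TPM at 8 h against 1643 and 1906 TPM at 0 h in WT cells. Over 8 h Rpl36a rose by 0.39 in KO and 0.20 in WT, while Rpl36al fell by 0.57 ± 0.076 and by 0.82 ± 0.076 (SE, adjusted p = 1.26e-05 and 3.56e-07, limma). With median-ratio scaling the Rpl36al values were 0.88 and 0.90. The coding sequences of the pair differ at 39 of 321 bases. Rpl36al is one of the genes shown above with no pyrimidine run at the start annotated by RefSeq, and GENCODE M21 places its start elsewhere. The promoter of Rpl36a is not shown, and a link between such a run and these changes was not tested. Rpl22 and its paralog Rpl22l1, which can replace it in the ribosome, had low levels. Rpl22 had 157.2 and 155.4, 229.0 and 225.0, and 165.2 and 165.9 TPM at 0, 4 and 8 h in KO cells, and 126.7 and 119.0, 130.2 and 114.0, and 107.7 and 124.4 TPM in WT cells. Its rise of 0.54 ± 0.083 at 4 h in KO cells passed (SE, adjusted p = 7.49e-05, limma), and its WT value of -0.01 did not. Rpl22l1 rose over 8 h by 0.50 in KO and 0.75 in WT. Rps27l had 846.0 and 831.8 TPM at 8 h against 992.9 and 1030 TPM at 0 h in KO cells, a fall that median-ratio scaling turns round, and its WT value of -0.12 did not pass.

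**Figure D3:**
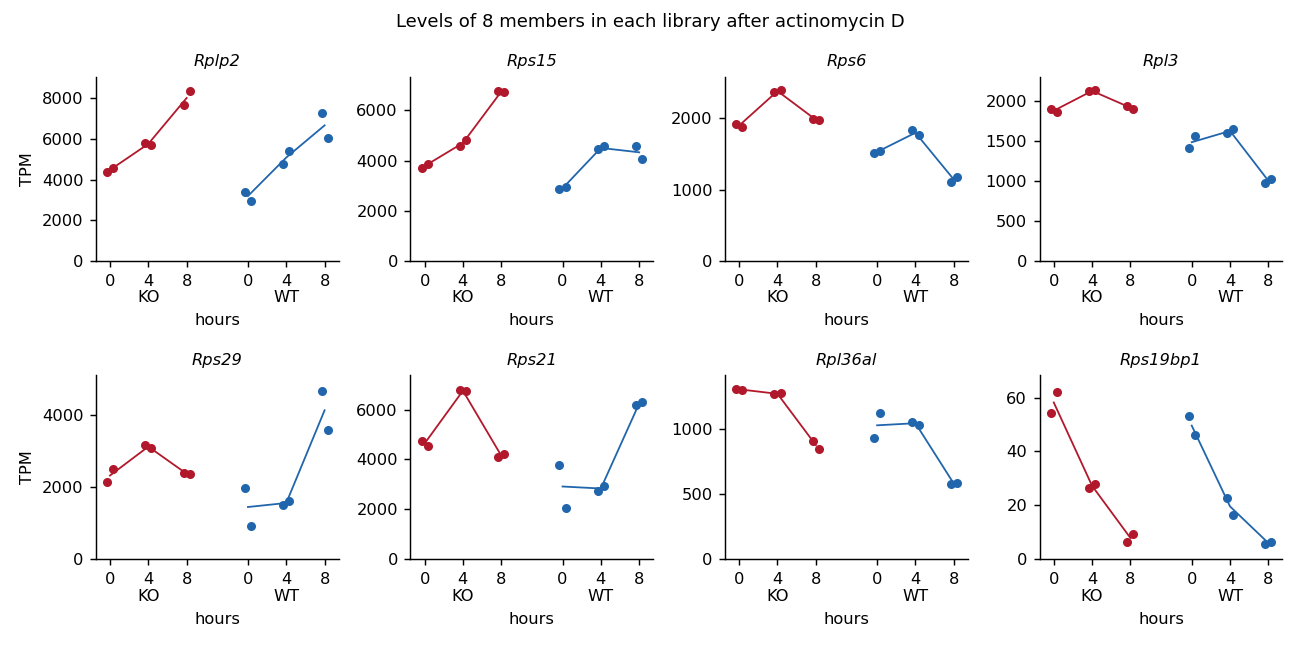
TPM of 8 members in each library at 0, 4 and 8 h, KO left and WT right in each panel, with points for libraries and lines through the means of 2. Rplp2 gains in both genotypes, Rps15 keeps gaining in KO, Rps6 and Rpl3 end lower in WT, Rps29 and Rps21 end higher in WT, and Rpl36al and Rps19bp1 end lower in both.

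Between 4 h and 8 h the members split, and no test compared the genotypes over this interval. In KO cells, 29 were higher at 8 h than at 4 h and 18 lower, against 8.97% and 43.1% of all genes. In WT cells, 17 were higher and 34 lower, against 6.9% and 54.8% of all genes. With median-ratio scaling the counts were 69 and 1 in KO and 72 and 4 in WT, with housekeeping scaling 44 and 6 in KO and 63 and 9 in WT, and with the length trend removed 50 and 8 in KO and 36 and 19 in WT. Centring on the members' median gave 38 and 9 in KO cells and 19 and 23 in WT cells. Without the first KO library at 8 h, 18 members were higher in KO cells. The 9 members higher in KO and lower in WT were Rpl8, Rpl10a, Rpl13, Rpl21, Rps2, Rps3, Rps4x, Rps9 and Rps10. The 4 that were lower in KO and higher in WT were Rpl37, Rpl38, Rps21 and Rps27rt, all with short coding sequences. Rpl35, Rplp2, Rps18 and Rps20 were higher in both. For these joint calls in KO and WT, no share of all genes was computed.

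**Figure D4:**
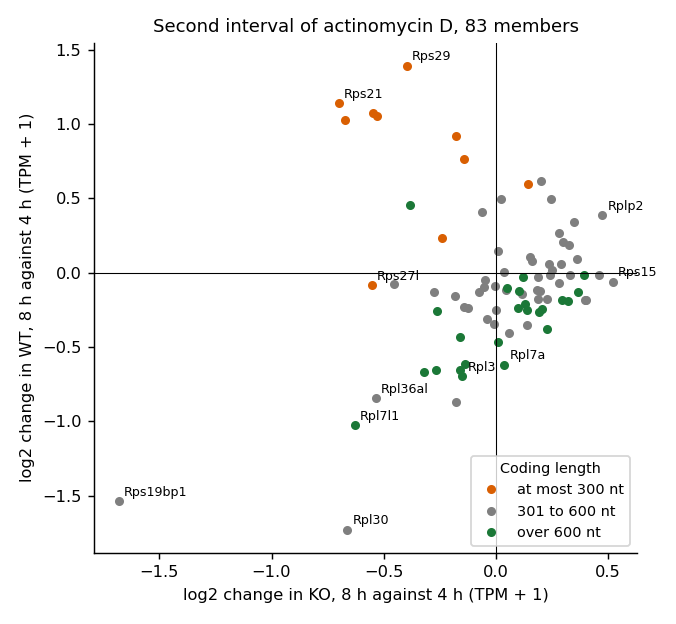
log2 change on the TPM + 1 scale from 4 h to 8 h in KO (x axis) and WT (y axis) for the 83 members with an annotated coding sequence, coloured by coding length. The members of at most 300 nt, such as Rps29 and Rps21, lie above 0 in WT, except Rps27l, and mostly below 0 in KO, and most of those over 600 nt, such as Rpl3, lie below 0 in WT.

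The change over 8 h differed between KO and WT cells in 36 members. It was higher in KO for 27 and lower for 9, against 17.3% and 2.63% of all genes. The median was 0.18 for the members and 0.18 for all genes tested. Median-ratio scaling left 3 higher and 9 lower, housekeeping scaling 3 and 8, centring on the members' median 10 and 9, and removal of the length trend 25 and 7. The members with a higher change in KO numbered 17 without the first KO library at 0 h, 13 without the second, 16 without the first KO library at 8 h and 9 without the variance trend. Those with a lower change numbered 4 with no filter on low values, and 6 to 13 as each library was left out. The 27 included Rpl3, Rpl4, Rpl6, Rpl7a, Rplp0, Rps2, Rps3a1, Rps4x, Rps6 and Rpsa. The 9 were Rpl36, Rpl37a, Rpl38, Rpl39, Rpl41, Rplp1, Rps21, Rps27rt and Rps29.

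Rpl3, Rpl4 and Rpl6, core proteins of the large subunit, had the highest differences among the members past the threshold that averaged at least 5 TPM. Rpl3 had 1902 and 1865 TPM before actinomycin D, 2127 and 2137 after 4 h, and 1939 and 1905 after 8 h in KO cells, and 1416 and 1561, 1600 and 1660, and 982.5 and 1028 TPM in WT cells. Its KO change over 8 h was 0.03 ± 0.058 and its WT change -0.56 ± 0.058 (SE, adjusted p = 0.65 and 1e-06, limma), a difference of 0.59 ± 0.082 (SE, adjusted p = 0.000905, limma). At 8 h it was 0.93 higher in KO. Rpl4 had 2623 and 2571 TPM at 8 h against 2578 and 2479 TPM at 0 h in KO cells, and 1423 and 1521 TPM at 8 h against 1910 and 2185 TPM at 0 h in WT cells. The differences of Rpl6 and Rpl4 were 0.53 and 0.51. The fall of these 3 in WT cells becomes a rise of 1.15 to 1.28 with median-ratio scaling, while their difference between genotypes passed under every one of 24 alternatives.

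The shortest members had the opposite pattern. The 10 members with a coding sequence of at most 300 nt were Rpl37, Rpl37a, Rpl38, Rpl39, Rpl41, Rps21, Rps27l, Rps27rt, Rps28 and Rps29. Rps29 had 2158 and 2496 TPM before actinomycin D, 3182 and 3077 after 4 h, and 2385 and 2365 after 8 h in KO cells, and 1977 and 926.6, 1514 and 1613, and 4674 and 3602 TPM in WT cells. Rps21 had 4724 and 4553, 6778 and 6729, and 4084 and 4226 TPM in KO cells, and 3760 and 2072, 2754 and 2917, and 6165 and 6320 TPM in WT cells. Both were higher in KO at 4 h and lower in KO at 8 h, with no overlap. The changes of Rps29, Rpl38 and Rps21 over 8 h differed between KO and WT by -1.57 ± 0.347, -1.37 ± 0.260 and -1.32 ± 0.259 (SE, adjusted p = 0.00887, 0.00405 and 0.00481, limma). Rpl38, known in the mouse for translation of Hox mRNAs, had 2203 and 2646, 3493 and 3361, and 2223 and 2081 TPM in KO cells, and 1795 and 1044, 1618 and 1478, and 3399 and 2927 TPM in WT cells.

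Coding length ordered the members in several comparisons. At 8 h, 1 of the 10 short members was higher in KO and 5 were lower, with a median of -0.40. Of 232 other genes with so short a coding sequence, 25.9% were higher and 18.5% lower, and their median was 0.01. Of the 24 members over 600 nt, 23 were higher and 1 lower at a median of 0.70, against 37.8% higher and 11.9% lower of 8984 other genes of that length, with a median of 0.21. At 4 h all 10 short members were higher in KO, with a median of 0.88, against a median of 0.34 for members over 600 nt and 0.16 for other genes with short coding sequences. Of those other short genes, 25.9% were higher and 14.7% lower at 4 h, against 24.9% and 13.7% of all genes. Across the 83 members with a coding length, Spearman's rho between length and the KO to WT difference was -0.53 at 0 h, -0.43 at 4 h and 0.67 at 8 h. It was 0.72 for the difference in change over 8 h. These are descriptions across genes that share their libraries, and no p is given. Without the 10 short members the share of TPM was 18.06% and 18.22% before actinomycin D, 22.74% and 22.96% after 4 h, and 25.47% and 25.64% after 8 h in KO, and 13.92% and 13.74%, 18.28% and 18.57%, and 18.13% and 17.44% in WT.

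**Figure D5:**
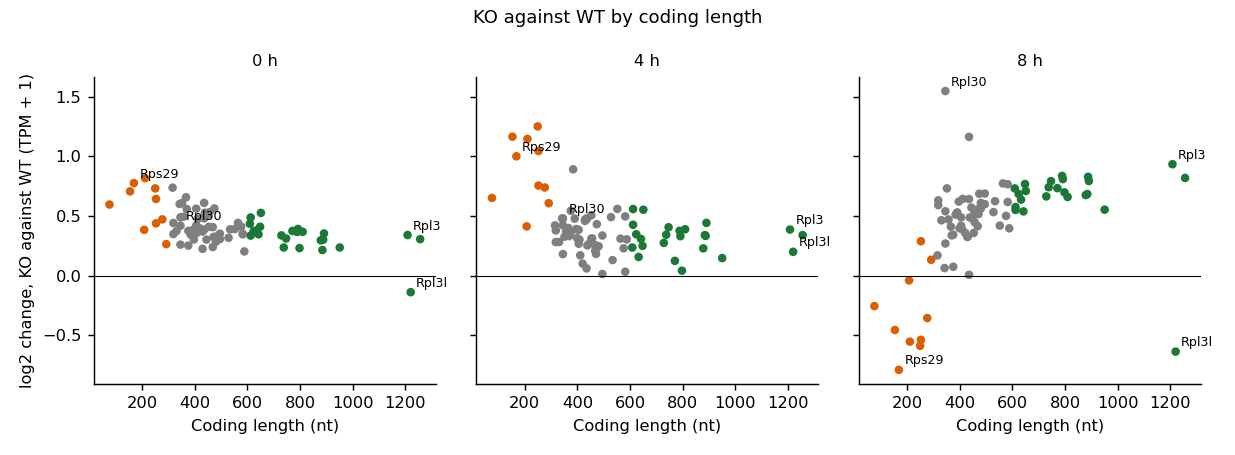
log2 difference, KO against WT, on the TPM + 1 scale against coding length in nt for 83 members at 0, 4 and 8 h, with points coloured as at most 300 nt (orange), the lengths between (grey) and over 600 nt (green). Most short members lie above most others at 0 h and 4 h and below them at 8 h.

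Values beside this pattern were of 2 kinds. The 2 WT libraries at 0 h stood apart for the short members, with a median log2 gap of 0.69 between them, against -0.09 to 0.12 between the 2 libraries of the other groups. Their share of TPM was 2.51% in the first and 1.47% in the second. The KO to WT difference of Rps29 at 0 h, 0.78, was 0.23 without the second library and did not pass (adjusted p = 0.241, limma), and that of Rps27rt was 0.16 (adjusted p = 0.0798). The difference in change over 8 h was -2.11 for Rps29, -1.76 for Rpl38 and -1.75 for Rps21 without the first library. Without the second it was -1.02, -0.98 and -0.89 for those genes, and all of these passed. At 8 h the lower KO levels of Rps29, Rpl38 and Rps21, -0.79, -0.55 and -0.59, no longer passed without the filter on low values (adjusted p = 0.076, 0.0918 and 0.0753, limma), nor without the first WT library at 8 h. The members with a lower change in KO numbered 13 without the first WT library at 0 h and 7 without the second. Other short genes moved differently by how short was defined. The 232 other genes with a coding sequence of at most 300 nt had a median difference in change of -0.05, against -1.01 for the 10 short members. Of those 232, 6.9% had a higher and 14.7% a lower change in KO, while 7 of the 10 had a lower one. Over all genes tested, 17.3% had a higher and 2.63% a lower change, with a median of 0.18. By transcript, the 14 members of at most 500 nt had a median KO to WT difference of 0.22 at 8 h, with 7 higher and 4 lower, and 93 other protein-coding genes had one of -0.21, with 10 higher and 21 lower. The median difference in change was -0.32 for those 14 members, with 1 higher and 6 lower, and -0.41 for the 93 others, with 2 higher and 24 lower. A part of transcript length in RNA selection, library making or TPM estimation was not tested.

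Other genes tied to the ribosome or to the TOP motif came from lists chosen with earlier results known. Rack1, a scaffold on the small subunit, is ribosomal without an Rpl or Rps symbol. Rack1 had 2149 and 2209 TPM at 8 h against 2050 and 2042 TPM at 0 h in KO, and 1188 and 1271 TPM at 8 h against 1514 and 1604 TPM at 0 h in WT. Over 8 h Rack1 fell by 0.34 in WT, with a change that was 0.43 higher in KO (adjusted p = 0.00276, limma).

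Among 16 further mRNAs with a TOP motif, 13 were higher in KO at 0 h, 13 at 4 h and 15 at 8 h, and none was lower. Over all genes tested, 14.3%, 24.9% and 37.3% were higher in KO at those times, and 11.5%, 13.7% and 12.1% were lower. Eef1a1, the elongation factor that delivers tRNA, had 11500 and 11230 TPM in KO at 8 h, against 5837 and 6329 TPM in WT. At 8 h against 0 h, 6 of the 16 were lower and 5 higher in KO cells, with a median of -0.02, against 75.4% lower and 9.54% higher of all genes. In WT cells 13 were lower and 2 higher, with a median of -0.54, a share of 81.2% lower that is near the 80.2% of all genes. For Npm1, a nucleolar chaperone of ribosome assembly, the KO change was -1.01 and the WT change -1.72. Of 14 genes that regulate TOP mRNAs, 12 were lower at 8 h in KO and 13 in WT, with Larp1 at -2.78 in KO and -2.92 in WT, and none was higher. These are 85.7% and 92.9% of the list, where 75.4% of all genes were lower in KO and 80.2% in WT. At 0 h, 1 of these regulators was higher in KO and 1 was lower, 7.14% each, against 14.3% and 11.5% of all genes. Of the 78 mitochondrial ribosomal protein genes, 26 were higher and 0 lower in KO at 0 h, or 33.3% higher against 14.3% of all genes. Their median difference at 0 h was 0.31, near the 0.38 of the 86 members. At 8 h against 0 h, 1 was higher and 67 were lower in KO, and 3 and 69 in WT. These are 85.9% and 88.5% lower, against 75.4% and 80.2% of all genes.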

How the data were processed

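RNA of NRAS/AE9a leukemic mouse cells was taken with TRIzol, made into libraries with the KAPA Stranded mRNA-Seq kit and sequenced as paired-end reads, per the labels' protocols. The deposited values are TPM per gene, 1 column a library, made with STAR and RSEM on mm10 per the submitters' processing notes; no source used here gives their versions, annotation or filters. RSEM divides reads among near-identical genes, and TPM sums to a fixed total, so a value is a share and a gain in some genes lowers the others.

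The 11152 genes that reached 1 TPM in 2 or more libraries were tested on log2(TPM + 1), with group means over all 12 libraries, in limma 3.58.1 (R 4.3.3) with an intensity trend and Benjamini-Hochberg adjustment over all of them. A fold change on this scale understates the change of low genes. Calls are at an adjusted p under 0.05. Summaries and figures used Python 3.11.15, pandas 2.3.3 and matplotlib 3.10.9, and the fit was tested on simulated data.

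Members and gene lists were chosen with earlier results of these data known. The genes named were a list of stalk, disease-linked and paralogous members, and in each comparison the 3 highest and 3 lowest members past the threshold with a mean of at least 5 TPM and no overlap between groups. Alternatives were other scalings, filters, pseudocounts, variance models and samples, removal of a length trend, pseudogene rows added, a replicate block, and each library left out. Depth is unknown for TPM. Lengths and promoters came from GENCODE M21 and RefSeq. Markers tested were those of myeloid, T, B, erythroid and stromal or endothelial cells.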

Additional observations from a re-analysis of the deposited data

Results flagged for a closer look

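The change over 8 h of actinomycin D differed between KO and WT cells by a test of the difference itself (limma interaction contrast) for 36 members, 27 with a higher and 9 with a lower change in KO. These are 31.4% and 10.5% of the members, against 17.3% and 2.63% of all genes tested. The median difference was 0.18 for the members and 0.18 for all genes tested. On the higher side were Rpl3 at 0.59, Rpl6 at 0.53 and Rpl4 at 0.51 on the log2 scale. On the lower side were Rps29 at -1.57, Rpl38 at -1.37 and Rps21 at -1.32. Leaving out 1 library gave 13 to 36 members higher and 6 to 13 lower, and no filter on low values left 4 lower. Scaling that sets the median gene equal left 3 higher and 9 lower, and the 6 named genes passed under each of the 24 alternatives.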

How the results depend on the processing

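Of 108 results on named genes, 43 kept direction and side of the threshold under all 24 alternatives. TPM gives shares with no added standard, so scaling sets how many members rose or fell over time. The shares of all genes called are not given for the alternatives, so counts under them have no such background beside them. Libraries number 2 a group, and precision is limited by that and by unknown depth. Same-numbered libraries did not deviate together over all genes (15 correlations of -0.083 to 0.051). With 1 replicate difference per group, this does not show whether same-numbered libraries were prepared together. With the replicate block, 105 of the 108 results kept their call and 3 lost it, for Rpl17 at WT 4 h against 0 h, Rpl3l at WT 8 h against 0 h and Rplp0 at KO against WT at 4 h. The cause of the changes given here was not tested. Under the block the members were 78 higher for KO against WT at 0 h and 1 lower for KO against WT at 0 h.

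With centring on the members' median, the members were 3 higher for KO against WT at 0 h, 7 higher for KO against WT at 4 h, 18 lower for KO against WT at 4 h, 32 higher for KO against WT at 8 h, 15 lower for KO against WT at 8 h, 23 higher for WT 4 h against 0 h, 6 lower for WT 4 h against 0 h, 33 higher for WT 8 h against 0 h, 23 lower for WT 8 h against 0 h, 1 higher for KO 4 h against 0 h, 7 lower for KO 4 h against 0 h, 35 higher for KO 8 h against 0 h, 14 lower for KO 8 h against 0 h, 9 lower for KO 8 h against 4 h and 10 higher for the difference in change. With a mean of at least 5 TPM required, the members were 0 lower for KO against WT at 0 h and 0 lower for KO against WT at 4 h. With median-ratio scaling, the members were 40 higher for KO against WT at 4 h, 45 higher for KO against WT at 8 h, 0 lower for WT 4 h against 0 h, 1 lower for WT 8 h against 0 h, 72 higher for WT 8 h against 4 h, 4 lower for WT 8 h against 4 h, 0 lower for KO 4 h against 0 h, 1 lower for KO 8 h against 0 h, 69 higher for KO 8 h against 4 h, 1 lower for KO 8 h against 4 h and 3 higher for the difference in change. With no filter, the members were 1 lower for KO against WT at 8 h and 4 lower for the difference in change. Without the variance trend, the members were 3 lower for KO against WT at 8 h, 19 higher for KO 8 h against 4 h and 9 higher for the difference in change. With housekeeping scaling, the members were 1 lower for WT 4 h against 0 h, 2 lower for WT 8 h against 0 h, 63 higher for WT 8 h against 4 h, 9 lower for WT 8 h against 4 h, 0 lower for KO 4 h against 0 h, 2 lower for KO 8 h against 0 h, 44 higher for KO 8 h against 4 h, 6 lower for KO 8 h against 4 h and 3 higher for the difference in change. With the length trend removed, the members were 1 lower for WT 4 h against 0 h, 6 lower for WT 8 h against 0 h, 36 higher for WT 8 h against 4 h, 19 lower for WT 8 h against 4 h, 1 lower for KO 4 h against 0 h, 50 higher for KO 8 h against 4 h and 8 lower for KO 8 h against 4 h. With only the groups compared in the fit, the members were 8 lower for KO 8 h against 0 h. Leaving out each library in turn, the members numbered 61 to 79 higher for KO against WT at 0 h, 0 to 1 lower for KO against WT at 0 h, 57 to 72 higher for KO against WT at 4 h, 1 to 1 lower for KO against WT at 4 h, 65 to 69 higher for KO against WT at 8 h, 0 to 9 lower for KO against WT at 8 h, 59 to 73 higher for WT 4 h against 0 h, 2 to 6 lower for WT 4 h against 0 h, 52 to 59 higher for WT 8 h against 0 h, 13 to 15 lower for WT 8 h against 0 h, 13 to 18 higher for WT 8 h against 4 h, 27 to 38 lower for WT 8 h against 4 h, 59 to 75 higher for KO 4 h against 0 h, 2 to 3 lower for KO 4 h against 0 h, 57 to 63 higher for KO 8 h against 0 h, 5 to 9 lower for KO 8 h against 0 h, 18 to 36 higher for KO 8 h against 4 h, 12 to 23 lower for KO 8 h against 4 h, 13 to 36 higher for the difference in change and 6 to 13 lower for the difference in change.

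With centring on the members' median, the sign turned for Rpl11 at -0.076 (WT 8 h against 0 h), Rpl13 at -0.28 (KO against WT at 4 h), Rpl17 at -0.15 (WT 4 h against 0 h), Rpl18 at -0.20 (KO 4 h against 0 h), Rpl19 at -0.17 (KO against WT at 0 h), Rpl22 at -0.027 (KO against WT at 0 h), Rpl28 at -0.27 (KO against WT at 4 h), Rpl36al at -0.023 (KO against WT at 0 h), Rpl5 at -0.017 (KO against WT at 0 h), Rpl7a at -0.14 (KO against WT at 0 h), Rplp0 at -0.14 (KO against WT at 0 h), Rplp0 at -0.29 (KO against WT at 4 h), Rps14 at -0.059 (KO 8 h against 0 h), Rps14 at -0.031 (WT 8 h against 0 h), Rps27a at -0.13 (KO against WT at 0 h), Rps27a at -0.039 (WT 8 h against 0 h), Rps6 at -0.20 (KO 8 h against 0 h), Rps6 at -0.059 (KO against WT at 0 h), Rpsa at -0.16 (KO against WT at 0 h) and Rpsa at -0.085 (WT 8 h against 0 h). With median-ratio scaling, the sign turned for Rpl22 at 1.62 (WT 8 h against 0 h), Rpl36al at 0.88 (KO 8 h against 0 h), Rpl36al at 0.90 (WT 8 h against 0 h), Rpl5 at 1.23 (KO 8 h against 0 h), Rpl5 at 1.06 (WT 8 h against 0 h), Rpl7l1 at 0.42 (KO 4 h against 0 h), Rpl7l1 at 0.30 (KO 8 h against 0 h), Rpl7l1 at 0.39 (WT 4 h against 0 h), Rpl7l1 at 0.046 (WT 8 h against 0 h), Rps27l at 1.18 (KO 8 h against 0 h), Rps27l at 1.59 (WT 8 h against 0 h), Rps27rt at 1.33 (KO 8 h against 0 h) and Rps6 at 1.29 (WT 8 h against 0 h). With housekeeping scaling, the sign turned for Rpl22 at 0.96 (WT 8 h against 0 h), Rpl36al at 0.27 (KO 8 h against 0 h), Rpl36al at 0.24 (WT 8 h against 0 h), Rpl5 at 0.63 (KO 8 h against 0 h), Rpl5 at 0.40 (WT 8 h against 0 h), Rpl7l1 at 0.13 (KO 4 h against 0 h), Rps27l at 0.58 (KO 8 h against 0 h), Rps27l at 0.94 (WT 8 h against 0 h), Rps27rt at 0.73 (KO 8 h against 0 h) and Rps6 at 0.64 (WT 8 h against 0 h). With the length trend removed, the sign turned for Rpl22 at 1.23 (WT 8 h against 0 h), Rpl3l at 0.77 (KO 8 h against 0 h), Rpl5 at 0.88 (KO 8 h against 0 h), Rpl5 at 0.66 (WT 8 h against 0 h) and Rps6 at 0.061 (WT 8 h against 0 h).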
